A study of Ailuropoda melanoleuca with 25 samples.

Results

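The gene models described here are a run of 732 neighbours on scaffold HIC_ASM_1 of the giant panda (Ailuropoda melanoleuca) assembly used by the authors. They are all models from evm.model.HIC_ASM_1.1181 to evm.model.HIC_ASM_1.2178 in the order of their numbers, out of 22924 models in all. The files give these numbers but no positions, so the run is a block in model order and its ends are not placed on a chromosome. On the same scaffold 784 models have lower numbers and serve as the reference, called here the models below the block, and 9 have higher ones. In what follows the prefix evm.model is left out. The block was chosen from the values of 3 libraries, both XR GPiPSC replicates and LB GPiPSC replicate 3, against LB GPiPSC replicates 1 and 2. Its level in those 5 libraries is therefore a description and carries no test.

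The study turned panda primary fibroblasts (PF) into induced pluripotent stem cells (GPiPSC) with episomal vectors, which carry the reprogramming genes without integrating. RNA was sequenced in 25 libraries of 12 groups. Fibroblasts were LB PF and XR PF, and reprogrammed cells were LB GPiPSC (3 libraries) and XR GPiPSC. Groups named by stage were stage I day 8, stage I day 24 and stage II day 8. A day 16 control stood beside day 16 cells given A83-01, an inhibitor of the receptor kinases through which TGF-beta signals. The last set was BACL LB GPiPSC together with BACL control and with BACL-CHIR99021, named for CHIR99021, an inhibitor of glycogen synthase kinase that activates Wnt signalling. All groups but LB GPiPSC had 2 libraries. The labels do not explain LB, XR and BACL, and they name no clone. Neither LB nor XR is given for the stage and day 16 cells, nor for BACL control or BACL-CHIR99021. They give the source of every library as primary fibroblasts. No model carries a gene symbol in the files, so the cell types could not be checked against their markers and no role can be given for any model. Whether replicates came from separate cultures is not stated, so the p-values rest on a spread between libraries that may be technical only.

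Genes that lie side by side on a chromosome share its copy number and, over shorter stretches, its chromatin and replication timing. Many neighbours are otherwise controlled one by one, so the median over many of them can stay level when single genes go up and down. It need not, and medians over stretches of this block also moved in the stages described further below. Cultured pluripotent stem cells are known for gaining or losing stretches of chromosomes as they are passaged. Neither DNA copy number nor chromatin was measured here.

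Of the 732 members, 559 had enough counts to be tested over the 25 libraries and 31 had no count in any of them. Of the 784 models below the block, 589 were tested and 39 had no count. The tested members had a median level of 14.5 CPM (counts scaled to the library total, with TMM factors for library composition) and the tested models below the block 11.1 CPM. At a level of 10 CPM or more, averaged over the 12 groups, stood 319 members and 303 models below the block. Model length was alike, with a median of 1062 bases over all members and 1041 below the block. Total estimated counts per library ran from 8627983 to 14890260.

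The block stood higher in 3 libraries than in the other 22. For each library, a block shift was taken as the median over the 559 tested members of the log2 CPM relative to the mean of the 12 groups, minus the same median over the 589 models below the block. The shift was 0.51 and 0.57 in XR GPiPSC replicates 1 and 2 and 0.43 in LB GPiPSC replicate 3, or 1.42-, 1.48- and 1.35-fold. LB GPiPSC replicates 1 and 2 stood at -0.02 and -0.08. Replicate 3 therefore stood apart from its own group and with the XR GPiPSC libraries. In bulk libraries a higher level in every cell and a still higher level in some cells cannot be told apart.

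**Figure D1:**
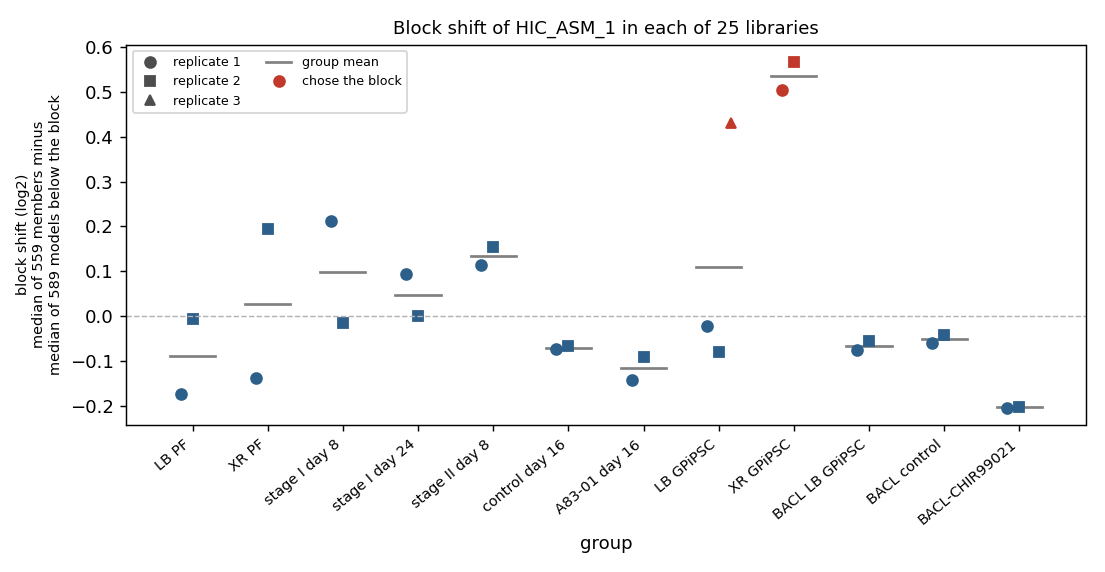
Block shift (log2, vertical axis) in each of 25 libraries by group (horizontal axis). Symbols are replicates, bars are group means and red marks the libraries whose values chose the block. The 3 red points lie between 0.43 and 0.57, and the other 22 libraries between -0.20 and 0.21.

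The other 22 libraries, of which only LB GPiPSC replicates 1 and 2 entered the choice of the block, had shifts from -0.20 (BACL-CHIR99021 replicate 1) to 0.21 (stage I day 8 replicate 1), with a median of -0.06. In fibroblasts the shift was -0.17 and -0.01 in LB PF replicates 1 and 2, and -0.14 and 0.19 in XR PF replicates 1 and 2. XR PF replicate 1 thus lay with LB PF, and neither XR PF library reached the 3 raised ones. Stage I day 8 had 0.21 and -0.02, stage I day 24 had 0.09 and -0.00, and stage II day 8 had 0.11 and 0.15. The day 16 control had -0.07 in both replicates, and A83-01 day 16 had -0.14 and -0.09. The 2 day 16 groups lay below 0 in each library, as did the 3 BACL groups. BACL LB GPiPSC stood at -0.08 and -0.06, BACL control at -0.06 and -0.04, and BACL-CHIR99021 at -0.20 in both replicates. In BACL-CHIR99021 the block itself lay at 0.03 and -0.01 and the models below it at 0.23 and 0.19, so the low shift came with a higher reference. Against all tested models outside the scaffold its mean shift was -0.03.

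In order of group means, XR GPiPSC (0.54 ± 0.04, SD, n = 2) stood first, followed by stage II day 8 (0.13 ± 0.03), LB GPiPSC (0.11 ± 0.28, n = 3), stage I day 8 (0.10 ± 0.16), stage I day 24 (0.05 ± 0.07) and XR PF (0.03 ± 0.24). Below 0 came BACL control (-0.05 ± 0.01), BACL LB GPiPSC (-0.07 ± 0.01), control day 16 (-0.07 ± 0.0048), LB PF (-0.09 ± 0.12), A83-01 day 16 (-0.12 ± 0.04) and BACL-CHIR99021 (-0.20 ± 0.0010). Among the groups that played no part in the choice, the replicates of stage II day 8 lay above those of the 2 day 16 groups and the 3 BACL groups, while the replicates of XR PF and stage I day 8 each spanned 0. LB GPiPSC owed its place and its SD to replicate 3: without that library its mean was -0.05. The place of the stage groups turned with the reference: against all tested models outside the scaffold, stage I day 8 stood at -0.136 and stage II day 8 at -0.301. Measured that way the shift was 0.49 and 0.47 in XR GPiPSC and 0.46 in LB GPiPSC replicate 3.

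Counted as reads, members took 5.32% and 5.24% of all estimated counts in XR GPiPSC and 5.10% in LB GPiPSC replicate 3. In LB GPiPSC replicates 1 and 2 they took 3.90% and 3.71%, and over the 22 other libraries from 2.39% (stage I day 8 replicate 1) to 4.12% (BACL LB GPiPSC replicate 2). The ratio of block counts to counts below the block was 1.73 and 1.81 in XR GPiPSC and 1.58 in LB GPiPSC replicate 3. This ratio also reached 1.39 and 1.57 at stage II day 8, where the median shift was only 0.11 and 0.15. A sum follows its most abundant models: in those 2 libraries HIC_ASM_1.1793 alone stood at 13062 and 15746 CPM.

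To see how evenly the block was raised, its models were taken in number order in 10 intervals, with log2 ratios to the mean of the BACL LB GPiPSC libraries, which played no part in choosing it. Only models at 10 CPM or more were used, 26 to 41 in each interval of the block. The 3 raised libraries themselves chose the block, so their values here are a description and carry no test. All 10 intervals lay above 0 in each of these libraries. Their medians ran from 0.34 to 0.64 in XR GPiPSC replicate 1, from 0.27 to 0.66 in replicate 2 and from 0.23 to 0.59 in LB GPiPSC replicate 3. The 10 intervals below the block ran from -0.41 to 0.13, from -0.51 to 0.23 and from -0.35 to 0.02 in the same libraries. The interval from HIC_ASM_1.1281 to HIC_ASM_1.1380 was the lowest of the block in XR GPiPSC replicate 1 (0.34) and in LB GPiPSC replicate 3 (0.23), and in LB GPiPSC replicates 1 and 2 it stood at -0.24 and -0.39. In LB GPiPSC replicates 1 and 2 the block's intervals ran from -0.26 to 0.08 and from -0.39 to 0.15, and in the BACL control replicates from -0.12 to 0.17 and from -0.13 to 0.13.

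**Figure D2:**
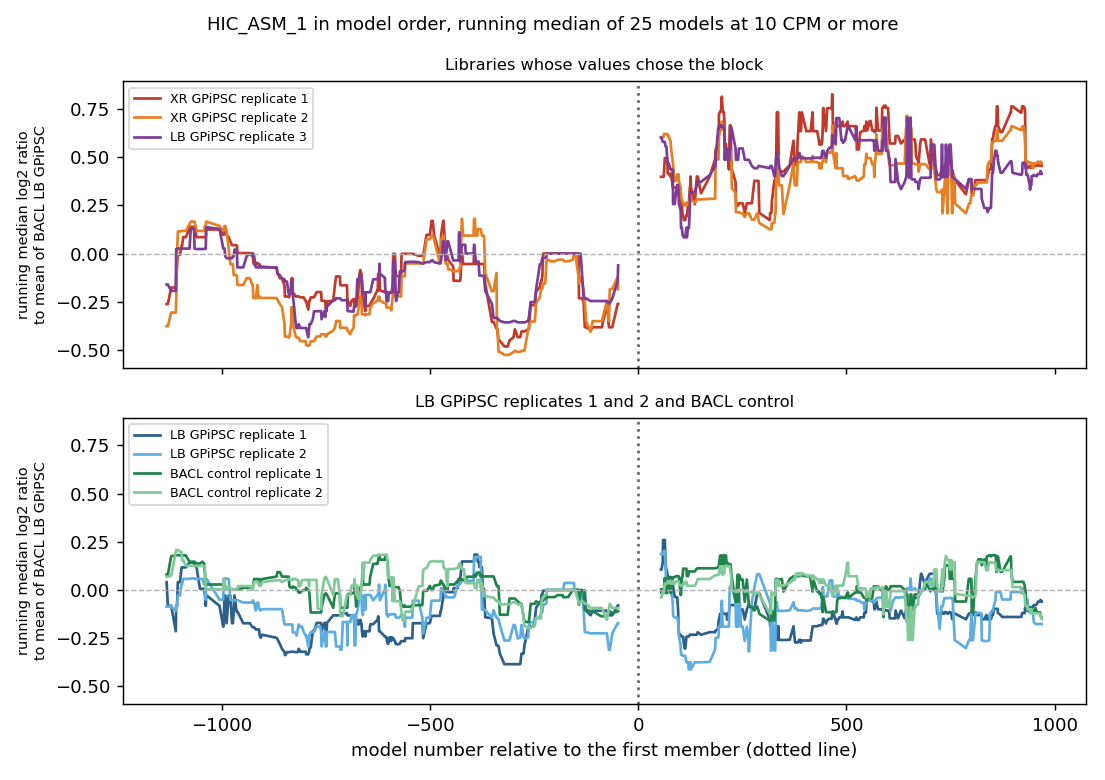
Running median over 25 models of the log2 ratio to the mean of BACL LB GPiPSC (vertical axis), in order of model number relative to the first member (horizontal axis, dotted line at 0), for models at 10 CPM or more. To the right of the line the 3 libraries of the upper panel stay above 0 over the length of the block. In the lower panel the BACL control replicates lie on either side of 0 along the scaffold. LB GPiPSC replicates 1 and 2 lie mostly below 0 on both sides of the line.

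Single models do not mark the start of the block, which the rule placed at HIC_ASM_1.1181. The last 5 models below it at 10 CPM or more, HIC_ASM_1.1147, HIC_ASM_1.1149, HIC_ASM_1.1171, HIC_ASM_1.1176 and HIC_ASM_1.1179, had log2 ratios in XR GPiPSC replicate 1 of -0.48, 0.99, 0.09, 2.04 and -0.47. The first 5 members at that level, HIC_ASM_1.1181, HIC_ASM_1.1203, HIC_ASM_1.1205, HIC_ASM_1.1209 and HIC_ASM_1.1213, had 2.59, 0.82, 1.48, 0.61 and 0.21. Values on both sides overlap, and HIC_ASM_1.1176 and HIC_ASM_1.1181 were far higher than their neighbours in all 3 raised libraries (2.49 and 2.32 in XR GPiPSC replicate 2, 2.58 and 2.16 in LB GPiPSC replicate 3). HIC_ASM_1.1181 also stood above BACL LB GPiPSC outside them. Its log2 ratio was 1.24 and 1.40 in LB GPiPSC replicates 1 and 2 and 1.80 and 1.79 in BACL control. The model was lowest in BACL LB GPiPSC itself, at 2.87 and 3.09 CPM, and stood at 42.9 to 52.6 CPM in the fibroblasts. At the far end, the last 5 members at that level, from HIC_ASM_1.2161 to HIC_ASM_1.2178, had 0.01 to 1.52 in XR GPiPSC replicate 1. Beyond it only HIC_ASM_1.2180 and HIC_ASM_1.2181 were tested, at mean levels of 2.41 and 8.08 CPM, too few to show whether the raised stretch ends there. HIC_ASM_1.1180, the last tested below the block, had a mean level of 0.446 CPM, and HIC_ASM_1.1185, the second tested member, 5.23 CPM.

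Single members scattered widely around the shared shift. In XR GPiPSC replicate 1 the 319 members at 10 CPM or more had a median log2 ratio to BACL LB GPiPSC of 0.49, with its quartiles at 0.18 and 0.91, and 273 of them (85.6%) lay above 0. In XR GPiPSC replicate 2 the median was 0.46 (quartiles 0.15 and 0.85) with 264 above 0, and in LB GPiPSC replicate 3 it was 0.48 (0.18 and 0.81) with 274 above 0. Of the 303 models below the block, 126, 120 and 119 lay above 0 in the same libraries. In all 3 libraries 242 members were above 0 and 22 in none, against 88 and 149 models below the block. Over 2-fold in all 3 were 40 members and 22 models below the block. These 3 libraries chose the block and are set against the same BACL LB GPiPSC mean. The counts are therefore a description, and their agreement across the 3 carries no test. In LB GPiPSC replicate 1 the quartiles were -0.32 and 0.24 among members and -0.38 and 0.17 below the block. In this library both sets thus scattered to a similar width, and members somewhat less widely than in the 3 raised libraries.

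**Figure D3:**
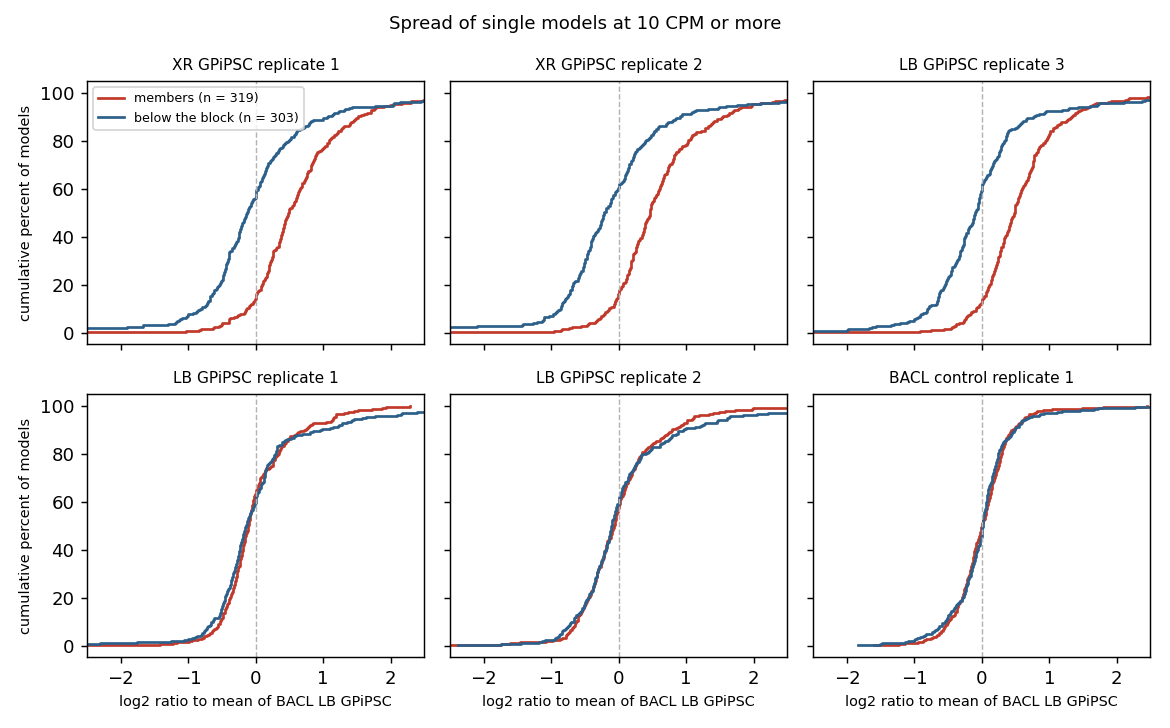
Cumulative percent of models (vertical axis) against the log2 ratio to the mean of BACL LB GPiPSC (horizontal axis, drawn from -2.5 to 2.5), for 319 members (red) and 303 models below the block (blue) at 10 CPM or more. In the 3 upper panels the red curve is displaced to the right through most of its course, with medians of 0.49, 0.46 and 0.48, and in the lower panels the curves lie close together.

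The 3 raised libraries, whose values chose the block, were close to one another within it and to a similar degree below it. The mean of XR GPiPSC minus LB GPiPSC replicate 3 had a median of 0.04 over the 319 members (quartiles -0.19 and 0.23). Over the 303 models below, it had a median of 0.00 (quartiles -0.25 and 0.21). For comparison, LB GPiPSC replicate 1 minus replicate 2 had -0.00 (quartiles -0.24 and 0.19) and -0.04. In XR GPiPSC, whose values helped choose the block, members lay above the models below it in each class of level and length. This is a description too. In XR GPiPSC the median log2 ratio was 0.48 over 70 members under 1 CPM (0.25 below the block), 0.67 over 170 members at 1 to 10 CPM (0.16), 0.57 over 253 members at 10 to 100 CPM (-0.11) and 0.29 over 66 members at 100 CPM or more (-0.28). At 10 CPM or more, members at or under the median length had 0.40 (n = 130) and longer ones 0.53 (n = 189). The models below the block had -0.22 and -0.16 in these length classes. In BACL control the same 6 classes had medians between -0.04 and 0.06.

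The members with the highest levels show how far single models depart from the block. HIC_ASM_1.1793, the most abundant, stood at 4079 and 4045 CPM in XR GPiPSC, 3771, 1925 and 2882 in LB GPiPSC replicates 1 to 3, 4801 and 4937 in BACL LB GPiPSC and 2070 and 1999 in BACL control. It was lower in XR GPiPSC than in BACL LB GPiPSC, against the direction of the block. It was highest at stage II day 8 (13062 and 15746 CPM) and in stage I day 24 replicate 1 (13565 CPM), and lowest in the day 16 control (1189 and 1094 CPM). HIC_ASM_1.1214 and HIC_ASM_1.1269, the 2 highest near the start of the block, stood at 3170 and 3251 CPM and at 1885 and 1835 CPM in XR GPiPSC. LB GPiPSC replicates 1 to 3 had 2531, 2829 and 2772 CPM of HIC_ASM_1.1214 and 990, 1089 and 1281 CPM of HIC_ASM_1.1269. For both, the XR GPiPSC libraries lay above all 3 LB GPiPSC libraries, and replicate 3 of LB GPiPSC was the highest of its group for HIC_ASM_1.1269 only.

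HIC_ASM_1.1728, the second most abundant in the middle of the block after HIC_ASM_1.1793, stood at 1934 and 1921 CPM in XR GPiPSC against 1131, 1303 and 1309 in LB GPiPSC and 1451 and 1486 in BACL LB GPiPSC. HIC_ASM_1.1968, towards the end of the block, stood at 806 and 831 CPM in XR GPiPSC, 597, 627 and 745 in LB GPiPSC and 566 and 573 in BACL LB GPiPSC, so that for this model replicate 3 lay between its own group and XR GPiPSC. It was expressed in all groups, from 490 CPM in LB PF replicate 2 to 1238 CPM at stage II day 8 replicate 2. HIC_ASM_1.2122 was highest in the day 16 groups. It stood at 3818 and 4237 CPM in the control, 2721 and 3940 with A83-01, 438 and 2388 in LB PF, 772 and 976 in XR PF and between 5.41 and 15.0 CPM in all GPiPSC and BACL libraries. Even at that low level it had 15.0 CPM in both XR GPiPSC libraries against 11.0, 7.47 and 11.4 in LB GPiPSC.

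The rule used the XR and LB GPiPSC libraries, so fold changes that involve them are a description, and no calls are counted. In edgeR's quasi-likelihood fit, XR GPiPSC minus LB GPiPSC had a median log2 fold change of 0.38 over members and -0.02 below the block. Without LB GPiPSC replicate 3, which was itself raised, the median was 0.60 over members and -0.00 below the block. XR GPiPSC minus XR PF had a median of 0.49 over members and -0.02 below the block. LB GPiPSC minus LB PF had 0.14 and -0.10, and -0.08 and -0.14 without replicate 3.

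The BACL libraries took no part in the choice of the block, and their 3 groups allow a test in which replicates differ little. In BACL control minus BACL LB GPiPSC the members were called about as often as other models, in both directions alike. Of 489 members tested in the 6 BACL libraries, 139 (28.4%) were called higher and 137 lower by edgeR at an adjusted p under 0.05, beside 29.0% and 28.2% of all 14959 models tested. The median log2 fold change was 0.01 over members and -0.00 over 499 models below the block. Fold changes thus lay on both sides of 0. Scaffold HIC_ASM_15, by contrast, stood at a median of 0.32 and 0.30 in the BACL control replicates against BACL LB GPiPSC, and at 0.21, 0.26 and 0.27 in the 3 libraries with the raised block. DESeq2 called 178 members beside 40.9% of all models. With the spread pooled over all 25 libraries, 12 of 559 members were called beside 767 of 17225 models (4.45%). In that fit the share was smaller among members.

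Among called members with at least 10 CPM in the higher group and 10 counts in the lower, HIC_ASM_1.1181 and HIC_ASM_1.1854 rose the most. HIC_ASM_1.1181 stood at 2.87 and 3.09 CPM in BACL LB GPiPSC and 10.8 and 10.7 in BACL control, a log2 fold change of 1.82 ± 0.16 (SE; edgeR adjusted p = 1.23e-21). HIC_ASM_1.1854 stood at 11.0 and 10.9 CPM and at 37.3 and 33.7 CPM, with 1.68 ± 0.09 (adjusted p = 1.64e-42). Downward, HIC_ASM_1.1998 had 11.7 and 14.7 CPM in BACL LB GPiPSC and 4.23 and 5.22 in BACL control (-1.50 ± 0.14), and HIC_ASM_1.2156 had 17.8 and 18.9 against 7.71 and 6.52 CPM (-1.39 ± 0.12). The edgeR adjusted p of the latter 2 was 9.18e-20 and 7.14e-23, and both lost the call with all 25 libraries in the fit (0.202 and 0.126). In none of the 4 did the libraries of the groups overlap, which the rule for naming them required.

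BACL-CHIR99021 gave more calls in both directions, again at shares near those of all models. Against BACL LB GPiPSC, 184 members (37.6%) were higher and 169 (34.6%) lower, beside 37.2% and 34.4% of all models, with a median of 0.01 over members and 0.02 below the block. Against BACL control, 186 were higher and 168 (34.4%) lower, beside 37.1% and 34.4%, with a median of 0.04 over members and 0.13 below the block. Of the models below the block, 42.1% were called higher in the latter comparison and 31.9% lower. Both comparisons with BACL-CHIR99021 share its libraries. With all 25 libraries in the fit, 96 members were called in the former and 93 in the latter, beside 18.1% and 16.1% of all 17225 models.

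The LB and XR fibroblasts differed at single members, and the medians of the block and of the models below it were close. In XR PF minus LB PF, 57 of 559 members (10.2%) were called higher and 31 (5.55%) lower by edgeR, beside 9.47% and 5.04% of all models. The median log2 fold change was -0.10 over members and -0.07 below the block. Along the block the interval medians ran from 0.43 (HIC_ASM_1.1181 to HIC_ASM_1.1280) to -0.48 (HIC_ASM_1.1880 to HIC_ASM_1.1978), and below it from 0.67 (HIC_ASM_1.1063 to HIC_ASM_1.1180) to -0.57 (HIC_ASM_1.237 to HIC_ASM_1.354), so stretches on both sides of the boundary differed by similar amounts. With only the libraries compared in the fit, 23 members were called beside 3.34% of all models. In the fit of all libraries the count of called models also depended on single libraries, among members and over the whole table. Without XR PF replicate 1 and without LB PF replicate 1, 152 and 137 members were called beside 26.7% and 25.6% of all models. Without LB PF replicate 2 and without XR PF replicate 2, 46 and 36 were called beside 8.33% and 5.79%.

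HIC_ASM_1.1498 rose from 0.656 and 0.485 CPM in LB PF to 51.9 and 27.9 in XR PF, a log2 fold change of 6.08 ± 0.59 (SE; edgeR adjusted p = 2.76e-06). It was higher still at stage I day 8 (101 and 159 CPM). HIC_ASM_1.1862 stood at 1.97 and 0.970 CPM in LB PF against 19.6 and 33.1 in XR PF (4.11 ± 0.59, adjusted p = 0.000158, edgeR), and was at or below 0.583 CPM in all GPiPSC and BACL libraries. In the other direction, HIC_ASM_1.1632 fell from 48.1 and 8.37 CPM in LB PF to 2.83 and 0.557 in XR PF (-4.03 ± 0.68, adjusted p = 0.000674, edgeR). Its fold change was -2.26 without LB PF replicate 1 and -5.65 without XR PF replicate 1. HIC_ASM_1.1810 fell from 5.33 and 17.6 to 1.70 and 0.371 CPM (-3.42 ± 0.77, adjusted p = 0.00668, edgeR), and lost the call without LB PF replicate 2 (-2.32, adjusted p = 0.0863) or XR PF replicate 2 (-2.73, adjusted p = 0.081). In LB GPiPSC HIC_ASM_1.1632 stood at 79.0, 68.9 and 109 CPM and in XR GPiPSC at 76.1 and 66.1 CPM, so there the groups overlapped.

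In the stages of reprogramming members were called in both directions. At stage I day 8, against the mean of both fibroblast groups, 122 members (21.8%) were higher and 160 (28.6%) lower, beside 26.0% and 25.6% of all models. The models below the block leaned further the same way (18.2% and 34.0%), and medians were -0.23 over members and -0.33 below the block. From day 8 to day 24 of stage I, 107 members (19.1%) were higher and 57 (10.2%) lower, beside 18.6% and 13.9%, with medians of 0.29 and 0.26 where all models had 0.15. From there to stage II day 8, 59 (10.6%) were higher and 123 (22.0%) lower, beside 12.7% and 19.0%, with medians of -0.43 and -0.55 where all models had -0.15. In each step the block and the models below it shared the sign of their median, and block minus reference was 0.10, 0.04 and 0.11. With a library left out, this difference ran from 0.049 to 0.115, from -0.048 to 0.064 and from 0.033 to 0.221. Over all settings it ran from 0 to 0.141, from -0.048 to 0.085 and from -0.028 to 0.221. The 0 came with no filter on low counts, and the -0.028 with limma-trend on log2(TPM + 1). These 3 comparisons share libraries, so their values are set side by side only. Along the block the single intervals moved apart: at stage I day 8 replicate 1 they ran from -2.02 (HIC_ASM_1.1480 to HIC_ASM_1.1579) to 0.78 (HIC_ASM_1.1181 to HIC_ASM_1.1280) against BACL LB GPiPSC, and at stage II day 8 replicate 2 from -1.87 to 1.34 in the same 2 intervals.

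**Figure D4:**
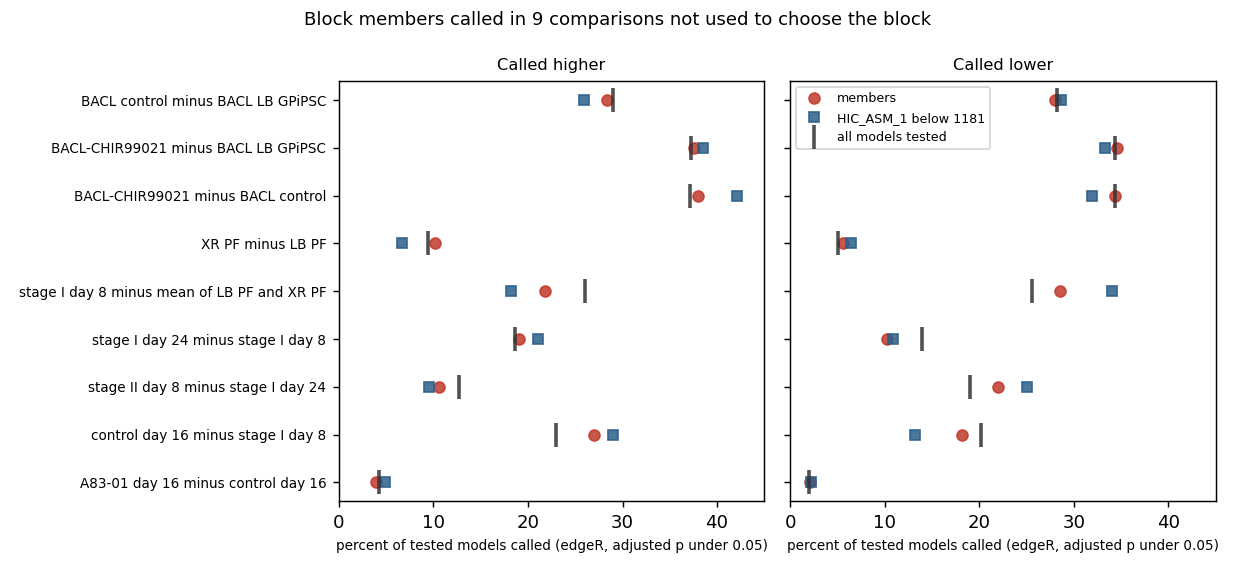
Percent of tested models called higher (left) and lower (right) by edgeR at an adjusted p under 0.05 (horizontal axis) in 9 comparisons (vertical axis), for members (red circles), models below the block (blue squares) and all models tested (upright strokes). The members lie close to the stroke in the BACL, fibroblast and A83-01 comparisons, and in the 4 stage and day 16 control comparisons members and models below the block lie on the same side of it.

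In the stage comparisons too, counts depended on the libraries in the fit. With only the libraries compared, 158 members were called against the fibroblasts, 69 from day 8 to day 24 and 63 from there to stage II day 8. Beside them stood 28.7%, 16.6% and 14.1% of all models. In day 16 control minus stage I day 8 they came to 322, beside 65.8%. In the fit of all libraries counts also moved with single libraries, over all models as among members. Without stage I day 8 replicate 1, 164 members were called against the fibroblasts, 93 from day 8 to day 24 and 73 in the day 16 comparison that follows, beside 26.8%, 20.9% and 12.1% of all models. From day 24 to stage II day 8, 83 were called without stage I day 24 replicate 2, and 113 and 67 without stage II day 8 replicates 1 and 2, beside 15.4%, 20.4% and 12.3%.

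In the day 16 control against stage I day 8, 151 members (27.0%) were higher and 102 (18.2%) lower, beside 23.0% and 20.2% of all models. The median was 0.24 over members and 0.44 below the block, a difference of -0.20, and of -0.06 without stage I day 8 replicate 1. Without day 16 control replicate 1 or 2, 165 and 136 members were called, beside 25.7% and 21.4% of all models. Against the day 16 control 22 members (3.94%) were higher with A83-01 and 12 (2.15%) lower, beside 4.19% and 2.04% of all models, with medians of 0.08 and 0.03. The members called came to 17 and 9 without control replicates 1 and 2 and to 13 without A83-01 replicate 1, beside 2.14%, 1.70% and 2.11% of all models. With only these 4 libraries in the fit they came to 69, beside 14.9%.

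Among the members called higher with A83-01, HIC_ASM_1.1224 stood at 24.2 and 23.4 CPM in the control and 195 and 88.7 CPM with A83-01 (log2 fold change 2.57 ± 0.32 SE, edgeR adjusted p = 7.49e-05). HIC_ASM_1.2104 stood at 3.15 and 2.93 CPM in the control and 23.6 and 9.39 with A83-01 (2.44 ± 0.33, adjusted p = 0.000144, edgeR). Both were high in LB and XR GPiPSC, at 968 to 1387 CPM and at 112 to 204 CPM. The 2 A83-01 replicates differed over 2-fold for each, with replicate 1 the higher, and without it the fold changes were 1.86 and 1.59. Downward, HIC_ASM_1.1932 fell from 33.0 and 40.7 to 2.99 and 3.13 CPM (-3.58 ± 0.60, adjusted p = 0.00129, edgeR), and had 0 counts in all 4 fibroblast libraries, where 3 counts stand for 0.242 to 0.364 CPM. HIC_ASM_1.1798 fell from 71.5 and 71.4 to 13.6 and 8.98 CPM (-2.65 ± 0.53, adjusted p = 0.00437, edgeR), and lost the call without A83-01 replicate 2 (adjusted p = 0.0643).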

How the data were processed

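Each library has 1 table of gene models, in which the authors deposited estimated counts and TPM values (per the file headers), made with kallisto per the submitters' processing notes. No version, index or build is given in the sources used here. Counts were rounded. None (0) of the identifiers occurred in the RefSeq table at hand, so no names or sequences are shown. Models kept by filterByExpr were scaled by TMM and tested with edgeR 4.0.16 in R 4.3.3 (quasi-likelihood F test, robust, Benjamini-Hochberg over all models tested, adjusted p under 0.05). The BACL comparisons used the 6 BACL libraries, whose replicates vary little, and all others 1 fit of 25 libraries (3 and 13 residual degrees of freedom). The spread in the latter was pooled over all 25, the 6 BACL libraries among them. Log2 CPM used a prior count of 2, and 3 counts correspond to 0.176 to 0.376 CPM, a floor for counting error only. Named are the 2 members of highest level in the first, middle and last stretch of the block, the tested models on either side of its start, the nearest at 10 CPM or more at its ends (chosen after their values were seen), and, in 3 comparisons, the 2 called members per direction with the largest changes (at least 10 CPM in the higher group, at least 10 counts in the lower, no overlap). Members and lists were chosen with earlier results of these data known. The edgeR step was tested on simulated data. Alternatives were RLE, DESeq2 1.42.0, no filter, other sets of libraries, a replicate block, limma 3.58.1 on log2(TPM + 1) and log2(TPM + 0.1), a level of 10 CPM, and each library left out. The ratio to BACL LB GPiPSC was added after the data were examined.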

Additional observations from a re-analysis of the deposited data

How the results depend on the processing

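Block shifts of the 12 groups were within 1 pooled SD (0.142, which includes the SD of 0.28 in LB GPiPSC) of the printed value in 62 of 72 alternatives. Against models outside HIC_ASM_1 the mean was 0.071 in LB PF, -0.136 at stage I day 8, -0.301 at stage II day 8 and -0.029 in BACL-CHIR99021. Relative to BACL LB GPiPSC it was 0.063 in LB PF, 0.181 in XR PF and 0.016 in BACL-CHIR99021. Leaving out a library gave -0.05 to 0.205 in LB GPiPSC (the former without replicate 3) and -0.139 to 0.194 in XR PF. Of the 83 alternatives for the difference between block and reference medians, 81 were within that SD. BACL-CHIR99021 minus BACL control gave 0.068 at 10 CPM or more against -0.082, and XR PF minus LB PF ran from -0.036 to 0.143 with a library left out. That SD is a spread of block shifts between libraries and was larger than most of these differences. A change of sign could thus lie within it. In stage II day 8 minus stage I day 24, limma-trend on log2(TPM + 1) gave -0.028 against 0.111. 

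Counts of called members were within 1.5 times in 76 of 101 alternatives. With all 25 libraries in the fit, 12, 96 and 93 were called in BACL control and BACL-CHIR99021 against BACL LB GPiPSC and in BACL-CHIR99021 against BACL control (main counts 276, 353 and 354), and DESeq2 gave 178 in the first. Shares of all models fell too, from 57.2%, 71.6% and 71.4% to 4.45%, 18.1% and 16.1%, and to 40.9% by DESeq2. With only the libraries compared, 23 were called in XR PF minus LB PF (88), 158 at stage I day 8 against fibroblasts (282), 69 from stage I day 8 to day 24 (164), 63 from there to stage II day 8 (182; 115 by limma-trend on log2(TPM + 1)) and 69 in A83-01 minus control (34). With a library left out these ran from 36 to 152, 164 to 304, 93 to 162, 67 to 214 and 9 to 26, and from 73 to 219 in control day 16 minus stage I day 8 (253). Of 132 alternatives for the 12 models named by change, 127 kept the call, 5 lost it and 0 reversed. The replicate block changed no count by over 1.5 times. It gave 94 against 88 in XR PF minus LB PF, beside 13.9% against 14.5% of all models. In BACL control minus BACL LB GPiPSC it gave 270 against 276, beside 56.1% against 57.2%. Replicate numbers showed no common pairing: correlations of replicate differences ran from -0.714 to 0.558 over 66 pairs of groups. How depth limits the calls was not tested.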
